A study of Mus musculus and Homo sapiens with 28 samples.

Results

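Semaphorins are secreted or membrane-bound guidance proteins, plexins are their receptors, and neuropilins are co-receptors that class 3 semaphorins share with VEGF. All genes of these 3 families were taken by symbol from the deposited tables of a renal carcinoma study: 31 of the 29353 human genes whose values were not constant (20 semaphorins, 9 plexins and 2 neuropilins) and 31 of the 29172 such mouse genes, split in the same way. No member was dropped as constant. The human data are 4 libraries of 786-O, a long-established line from a human clear cell carcinoma of the kidney, used in its parental form in 2 separate experiments. In each experiment 1 culture was left untreated and 1 received an inhibitor of CHK1, the checkpoint kinase that ATR activates, at 25 nM for 48 h. It is named LY2606368 in the labels and the design text and LY2603618 in the treatment protocol, so its identity is unsettled. The mouse data are 24 libraries of tumours of Renca, a mouse renal carcinoma line injected under the skin in Matrigel. They are labelled WT untreated (n = 7), WT VE822 (n = 6), SETD2 KD untreated (n = 6) and SETD2 KD VE822 (n = 5), where KD stands for knockdown of the histone methyltransferase SETD2. VE822, an ATR inhibitor, was given by gavage at 60 mg/kg on 5 days per week. The sources used here give neither the strain and age of the hosts nor the construct behind the knockdown label.

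Binding of a semaphorin opens the GTPase-activating domain inside the plexin, which lowers R-Ras and Rap activity, loosens integrin adhesion and collapses the actin cytoskeleton. Class 3 semaphorins are secreted and mostly reach plexin-A receptors through a neuropilin, whereas Sema3E binds plexin-D1 directly; classes 4, 5, 6 and 7 are held in the membrane. In tumours the families are known for their effects on vessel growth, on the movement of immune cells and on the invasion of the tumour cells themselves.

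The whole tables set limits on these genes. The human libraries held 20834400 to 23956007 counts, recovered from the deposited variance-stabilised log2 values. For the mouse, regularised log2 values (rlog) were deposited, and the depth is unknown. In untreated tumours Setd2 RNA did not show the knockdown of the label. Its rlog was 10.83 ± 0.07 (SD, n = 7) in libraries labelled WT and 10.81 ± 0.07 (SD, n = 6) in those labelled SETD2 KD. Under VE822 it was 10.03 ± 0.29 (SD, n = 6) and 9.72 ± 0.21 (SD, n = 5). The construct is not given, so these values do not decide whether the label holds. Directions between genotypes below are directions between libraries as labelled. Of 8 renal carcinoma markers, KRT8, KRT18, PAX8 and VIM had at least 5398 counts in every 786-O library, while CDH16 had 20 to 136; PAX2, CDH16 and KRT19 fell under the inhibitor. In Renca, Krt8 ran from 14.63 to 15.64 and Pax8 from 10.76 to 11.49; of the 8 markers 2 rose and 5 fell with VE822 under the WT label, and 1 rose and 4 fell under the SETD2 KD label. A tumour library also holds host cells, and fewer cells of a type and less RNA per cell cannot be told apart in it.

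In 786-O cells the CHK1 inhibitor lowered 10 members and raised 1. Both class 5 semaphorins, SEMA5A and SEMA5B, fell, as did 3 of 6 class 4, 2 of 4 class 6 and 1 of 7 class 3 semaphorins. Of the receptors, PLXNB2 and PLXND1 fell, 2 of 9 plexins, and neither neuropilin passed. SEMA7A rose. These 11 of 31 members had a limma adjusted p under 0.05, against 13.2% of all 29353 genes. The 10 that fell stand beside 6.16% of all genes, and the 1 that rose beside 7.05%. Abundance matters for such shares: 24 members had a mean log2 value of at least 5, and the same 11 were among them, or 45.8%. Of all genes above that level 27.1% were called. There 13.6% of all genes fell and 13.5% rose, while 41.7% of the 24 members fell. The median difference of all 31 members was -0.47 (log2), against 0.08 for all genes and -0.02 for all genes above that level.

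**Figure D1:**
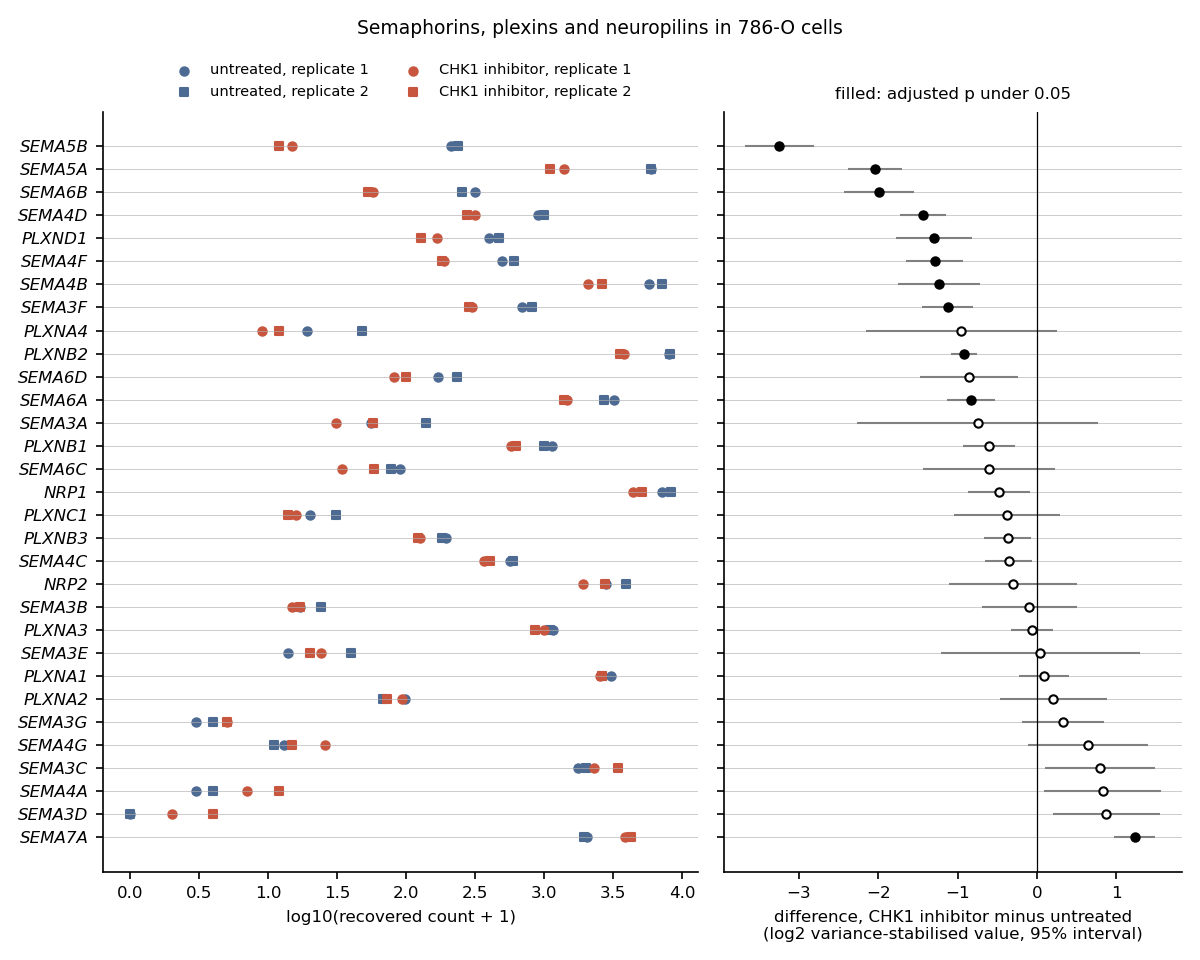
Left, recovered counts of the 31 members in each 786-O library, on a log10 axis after adding 1; blue, untreated; red, CHK1 inhibitor; circles and squares, replicates 1 and 2. Right, the difference in variance-stabilised log2 value with its 95% interval, filled where the adjusted p was under 0.05; SEMA5B lies farthest to the left at -3.25 and SEMA7A farthest to the right at 1.23.

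SEMA5B, a membrane semaphorin with thrombospondin repeats, had the largest difference of the members. It had 211 and 235 counts in the untreated libraries and 14 and 11 counts in the treated ones. The treated libraries lay far under both untreated ones, in either experiment. SEMA5B fell by 3.25 ± 0.15 (log2, SE; limma adjusted p = 0.0232) on the variance-stabilised scale, which compresses changes of low genes. Its mean CPM was 15.9-fold lower. The treated level of 0.59 CPM rests on few counts, so the size of the fold is less certain than its direction. Its close relative SEMA5A, which binds plexin-B3 and proteoglycans, stood much higher. SEMA5A had 5923 and 5950 counts untreated and 1379 and 1092 treated. It fell by 2.04 ± 0.12 (log2, SE; limma adjusted p = 0.0232), and its mean CPM was 4.29-fold lower.

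The class 6 semaphorins, transmembrane ligands of the plexin-A receptors, were lower in all 4 cases, and 2 passed. SEMA6B had 314 and 254 counts untreated and 56 and 52 treated, and fell by 1.99 ± 0.15 (log2, SE; adjusted p = 0.0232). SEMA6A had 3187 and 2727 counts untreated and 1449 and 1386 treated, and fell by 0.83 ± 0.10 (adjusted p = 0.0298). The groups of both genes were separate, a trait that was not counted over all genes. SEMA6D differed by -0.86 ± 0.22 (adjusted p = 0.0845), and passed with the experiment as a block (adjusted p = 0.0233). SEMA6C had 89, 77, 33 and 57 counts in untreated 1, untreated 2, treated 1 and treated 2, and did not pass (adjusted p = 0.279).

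Class 4 semaphorins were of mixed abundance, and the 3 that passed all fell. SEMA4D, the plexin-B1 ligand known as CD100 on T cells, had 901 and 994 counts untreated and 314 and 276 treated. It fell by 1.43 ± 0.10 (log2, SE; adjusted p = 0.0232). SEMA4F, known from neurons and glia, had 495 and 598 counts untreated and 188 and 182 treated, and fell by 1.29 ± 0.13 (adjusted p = 0.0246). SEMA4B was more abundant and more variable between replicates. It had 5749 and 7072 counts untreated and 2078 and 2601 treated, and fell by 1.23 ± 0.18 (adjusted p = 0.0365). Each of the 3 was separate between groups and lower in both experiments. The share of all genes with separate groups was not computed, so separation is not read as a trait of these genes. SEMA4C differed by -0.36 ± 0.10 and did not pass (adjusted p = 0.107), and SEMA4A and SEMA4G had at most 25 counts in any library.

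Among the secreted class 3 ligands only SEMA3F passed. SEMA3F, which binds neuropilin-2 and repels vessels, had 692 and 816 counts untreated and 299 and 282 treated. It fell by 1.12 ± 0.11 (log2, SE; adjusted p = 0.0252). SEMA3C, which had 1758 and 1996 counts untreated and 2287 and 3412 treated, was higher in both experiments. Its difference of 0.79 ± 0.24 did not pass (adjusted p = 0.120) and passed with the experiment as a block (adjusted p = 0.0299). SEMA3A, the classical collapsing factor, spread widely between replicates, with 55 and 138 counts untreated and 30 and 56 treated (adjusted p = 0.452). SEMA3B, SEMA3D, SEMA3E and SEMA3G had at most 39 counts in any library, so changes in them were hardly detectable at this depth. SEMA3D was at 0 in both untreated libraries and at 1 and 3 counts in the treated ones.

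SEMA7A, a lipid-anchored semaphorin that acts through integrin beta-1 and plexin-C1, was the member that rose. It had 2049 and 1941 counts untreated and 3867 and 4219 treated. Both treated libraries lay above both untreated ones, and the difference was 1.23 ± 0.09 (log2, SE; adjusted p = 0.0232), with a 2.28-fold higher mean CPM. Its receptor gene PLXNC1 had 13 to 30 counts and did not pass (adjusted p = 0.393).

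Of the receptors, PLXNB2, a plexin-B bound by SEMA4C and SEMA4D, was the most precise. It had 7948 and 8107 counts untreated and 3759 and 3517 treated, and fell by 0.92 ± 0.06 (log2, SE; adjusted p = 0.0232). PLXND1, the receptor of SEMA3E, had 398 and 468 counts untreated and 166 and 127 treated, and fell by 1.29 ± 0.17 (adjusted p = 0.0310). PLXNB1 had 1140 and 999 counts untreated and 578 and 620 treated; its difference of -0.61 ± 0.11 missed the threshold (adjusted p = 0.0528) and passed with the block (adjusted p = 0.0428). None of the plexin-A genes passed. PLXNA2 had 97 and 67 counts untreated and 92 and 72 treated, so its groups overlapped, and the difference was 0.21 (95% interval -0.46 to 0.88; adjusted p = 0.547). PLXNA1 and PLXNA3 differed by 0.08 and -0.06. PLXNA4 had 18 and 47 counts untreated and 8 and 11 treated, a difference of -0.96 ± 0.42 on few counts (adjusted p = 0.240). NRP1 had 7143 and 8335 counts untreated and 4407 and 5147 treated, a difference of -0.47 ± 0.14 that did not pass (adjusted p = 0.105) but did with the block (adjusted p = 0.0181). NRP2 differed by -0.31 ± 0.28 and passed in neither fit (adjusted p = 0.461 and 0.0575).

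With 2 libraries a group these calls depend on every library. Most or all of the 11 calls ended when any 1 library was left out, which leaves a lone library in a group. The share of all genes called in those fits is not given, so the loss is not read as a trait of these genes. SEMA5B differed by -3.32 without untreated replicate 1 and by -3.18 without untreated replicate 2. The direction of each of the 11 stayed. Without a mean-variance trend in the model limma called 0 members and 0 of 29353 genes, of which 8654 had an unadjusted p under 0.05, and the 11 members then had adjusted p from 0.0564 to 0.0613.

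Genes that work with semaphorins and plexins were read from 4 further lists in 786-O. Of 39 transducers and co-receptors 1 rose and 9 fell, or 25.6%, against 13.2% of all genes and 27.1% of those with a mean log2 value of at least 5. Their median difference was -0.22 (log2). ERBB2, a receptor kinase that associates with plexin-B proteins, fell by 1.51 ± 0.16 (SE; adjusted p = 0.0261). DPYSL2, the CRMP2 protein that carries the Sema3A signal to microtubules, fell by 1.47 ± 0.20 (adjusted p = 0.0338), and PTK2, focal adhesion kinase, by 0.88 ± 0.06 (adjusted p = 0.0232). Of 6 proteases that cleave semaphorins 2 fell: PCSK5, a proprotein convertase, by 1.19 ± 0.12 (adjusted p = 0.0255), and ADAM10, a sheddase, by 1.13 ± 0.08 (adjusted p = 0.0232). Of 7 VEGF ligands and receptors 1 rose, VEGFA, by 1.13 ± 0.20 (adjusted p = 0.0478). Of 17 netrin, slit, robo and UNC5 genes 1 rose, ROBO4, an endothelial guidance receptor, by 2.21 ± 0.15 (adjusted p = 0.0232).

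Before treatment the families covered a wide range of levels in Renca tumours. Compared per kilobase of exon, as the mean untreated rlog minus the log2 of the length, the highest members were Plxnb2 (11.73), Plxnd1 (10.22), Nrp2 (9.86), Sema4a (9.81) and Plxna1 (9.58). The lowest were Sema3a (0.40), Sema3d (0.28) and Sema4g (-0.28). Plxna2, at 7.02 on the same scale, was 11th of 31. Sema4g had a mean rlog under 3, from 2.63 to 3.30 per library, and was not tested; the other 30 members were. Sema5b, the gene with the largest fall in 786-O, lay near the floor here, with rlog values of 3.39 to 4.09 over all 24 libraries. It overlaps the gene Gm5963 on the opposite strand, and whether counting used strand is not given in the sources used here.

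In tumours labelled WT, VE822 raised 7 and lowered 5 of the 30 tested members, 40% of them, against 34.7% of all 15916 genes (17.2% rose and 17.5% fell). In tumours labelled SETD2 KD it raised 5 and lowered 4, 30%, against 22.2% of all genes (10.6% rose and 11.6% fell). Both shares are near those of all genes. With chromosome medians removed, the numbers of all genes that rose and fell moved from 2737 and 2793 to 3257 and 2037 under the WT label, and from 1688 and 1852 to 2053 and 1346 under the SETD2 KD label. The median member difference was 0.06 (rlog) under the WT label and 0.16 under the SETD2 KD label, against 0.01 in both for all genes. Under both labels the calls comprised class 3 and class 4 semaphorins, plexins and Nrp2, and 0 of the 7 members of classes 5, 6 and 7. The same 8 members passed under both labels, each in the same direction. They were 66.7% of the calls under the WT label and 88.9% of those under the SETD2 KD label. The same overlap was not computed over all genes, so it is not read as a trait of these families. Sema3e, Sema3a, Sema4f, Plxnd1 and Plxna1 rose, and Plxna2, Nrp2 and Plxnb2 fell. A further 5 passed under 1 label only, and 17 under neither.

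**Figure D2:**
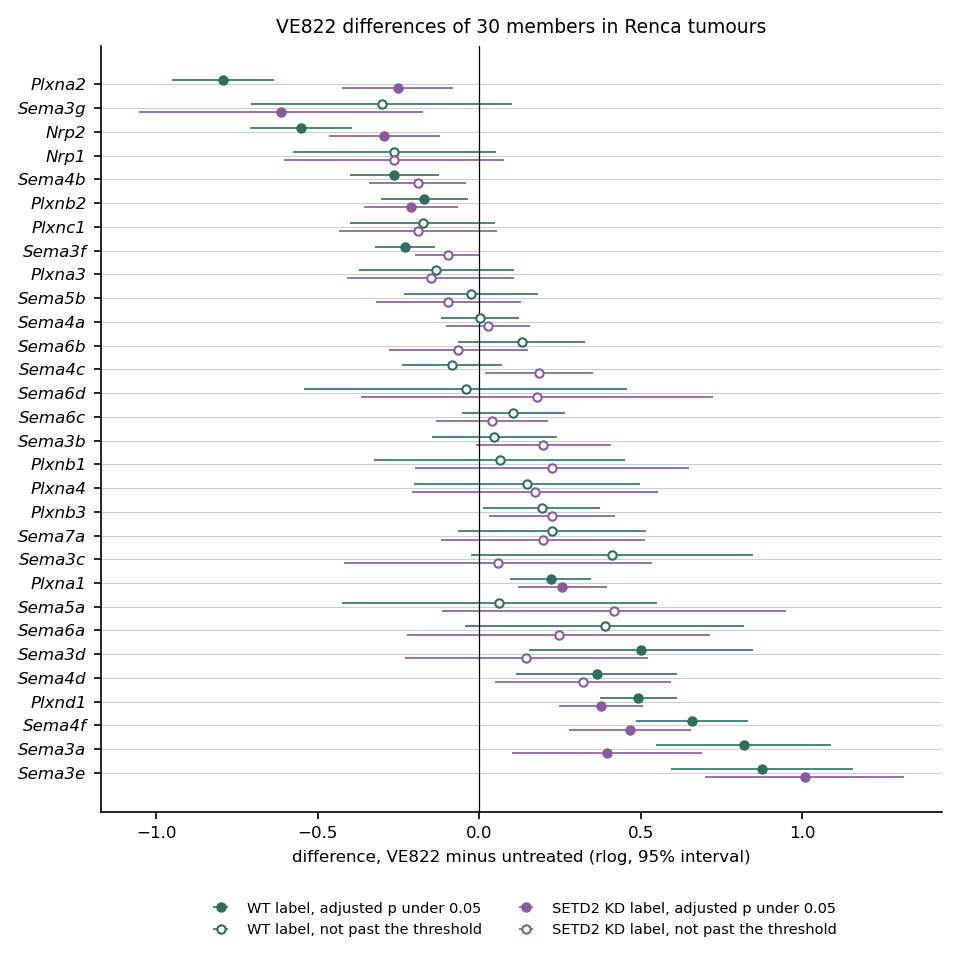
VE822 minus untreated for the 30 tested members, in rlog, with 95% intervals; green, tumours labelled WT; purple, tumours labelled SETD2 KD; filled where the adjusted p was under 0.05. The members are ordered by the sum of both differences, from Plxna2 (-0.79 and -0.25) at the top to Sema3e (0.87 and 1.01) at the bottom.

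Sema3e, the secreted ligand that binds plexin-D1 without a neuropilin and repels endothelial sprouts, had the largest rise of the members under both labels, although Sema3a stood just above it under the WT label with library weights (0.80 against 0.75) and without 5 libraries (0.64 against 0.63). Its rlog in WT untreated tumours ran from 5.14 to 5.70 (median 5.52) and under VE822 from 5.80 to 6.87 (median 6.36). Under the other label it ran untreated from 5.31 to 5.78 (median 5.46), and the 5 tumours under VE822 were at 6.49, 6.15, 6.83, 6.44 and 6.50. Under neither label did the treated and untreated libraries overlap. Here and below, the share of all genes without overlap was not computed, so it is not read as a trait of the members. The difference was 0.87 ± 0.14 (rlog, SE; limma adjusted p = 3.74e-05) under the WT label and 1.01 ± 0.15 (adjusted p = 3.89e-05) under the SETD2 KD label. Without 5 libraries that stand apart in their muscle, pericyte or carcinoma markers the WT difference was 0.63 (adjusted p = 0.00427).

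Plxnd1, the receptor of Sema3e and abundant in vessels and macrophages, rose as well. It ran from 12.80 to 13.11 (median 13.03) in WT untreated tumours and from 13.32 to 13.61 (median 13.52) under VE822. With the SETD2 KD label it ran from 13.06 to 13.30 (median 13.18) untreated, and was 13.40, 13.56, 13.62, 13.51 and 13.70 under VE822. Treated and untreated libraries were again separate under both labels. The differences were 0.49 ± 0.06 (rlog, SE; adjusted p = 1.12e-06) and 0.38 ± 0.06 (adjusted p = 0.000150). Plxnd1 lies on chromosome 6, where the median gene was higher by 0.13 under the WT label and 0.04 under the SETD2 KD label. With the chromosome medians removed the differences were 0.36 and 0.33, and both passed. Of 9 endothelial markers 1 rose, Vwf, under each label; their mean rlog per library was 7.58 to 8.55 in WT untreated, 7.59 to 9.08 in WT VE822, 7.66 to 7.89 in SETD2 KD untreated and 7.51 to 9.13 in SETD2 KD VE822 tumours. Of 9 macrophage markers 0 rose and 2 fell under the WT label, and 1 rose and 2 fell under the SETD2 KD label. The part of these cells in the Plxnd1 result was not tested.

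Sema3a, which signals through neuropilin-1 and plexin-A receptors, rose under both labels. It ran from 3.92 to 4.61 (median 4.28) in WT untreated tumours and from 4.76 to 5.56 (median 5.06) under VE822, with no overlap. In SETD2 KD tumours it ran from 3.89 to 4.37 (median 4.05) untreated and was 4.44, 4.33, 4.28, 4.75 and 4.60 under VE822, where the lowest 2 values lay under the highest untreated one. The difference was 0.82 ± 0.13 (rlog, SE; adjusted p = 4.78e-05) under the WT label and 0.39 ± 0.14 (adjusted p = 0.0481) under the SETD2 KD label. The second call was marginal: it ended in 11 of 18 alternative fits, 9 of which left out 1 library. Sema3a lies in a run of class 3 genes on chromosome 5, with Sema3d, Sema3e and Sema3c, between 10000000 and 20000000 (GRCm38). The 8 other genes tested in that stretch had a median difference of 0.03 under either label, and 0 of them passed. Under the WT label they ran from -0.37 (Cd36) to 0.47 (Cacna2d1). Several were low, such as Gm21190 and Gnai1 with a mean rlog of 3.16 and 3.42, so few could pass. A shift shared over the stretch was not tested.

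The other class 3 genes of that run moved less. Sema3d, which was barely above the floor, ran from 3.12 to 3.80 (median 3.41) in WT untreated tumours and from 3.31 to 4.67 (median 3.85) under VE822, with much overlap. It rose by 0.50 ± 0.17 (rlog, SE; adjusted p = 0.0233) under the WT label. That call ended without WT VE822 replicate 2 (0.46, adjusted p = 0.0542) or replicate 4 (0.35, adjusted p = 0.0771), and the 5 libraries together took it to 0.18 (adjusted p = 0.480). The fibroblast marker mean was 12.03 in WT VE822 replicate 4, the highest of all 24 libraries, and Sema3d was also highest there, at 4.67. The muscle (8.13), endothelial (9.08) and pericyte (8.99) marker means of that library were also among the highest. The part of any of these cells in the Sema3d result was not tested. Sema3c had rlog values of 3.02 to 4.70 and passed under neither label.

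None of the remaining class 3 genes rose in the test. Sema3f ran from 11.41 to 11.58 (median 11.49) in WT untreated tumours and from 11.14 to 11.39 (median 11.27) under VE822, with no overlap. It fell by 0.23 ± 0.05 (rlog, SE; adjusted p = 0.000378) under the WT label and differed by -0.10 ± 0.05 (adjusted p = 0.161) under the SETD2 KD label. Sema3g, known from arterial endothelium, ran from 7.89 to 8.63 (median 8.39) in SETD2 KD untreated tumours and was 7.32, 7.78, 7.40, 8.60 and 7.38 under VE822. Replicate 4 lay apart from the other treated tumours, among the highest untreated values. Sema3g fell by 0.61 ± 0.21 (adjusted p = 0.0398) under the SETD2 KD label, a call that ended in 11 of 19 alternative fits, 8 of which left out 1 library. Under the WT label it differed by -0.30 ± 0.20 (adjusted p = 0.241), and it passed there without the 5 libraries (-0.54, adjusted p = 0.0239). Sema3b, abundant at 11.54 to 12.46, passed under neither label. Its SETD2 KD difference of 0.20 passed without the 5 libraries (0.33, adjusted p = 0.00272) and with library weights (0.28, adjusted p = 0.00413).

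Class 4 semaphorins gave both directions. Sema4f ran from 5.51 to 6.16 (median 5.85) in WT untreated tumours and from 6.29 to 6.61 (median 6.50) under VE822. Tumours labelled SETD2 KD ran from 5.97 to 6.20 (median 6.14) untreated and were at 6.51, 6.60, 6.44, 6.63 and 6.65 under VE822. Every treated library lay above every untreated one of its label. The differences were 0.66 ± 0.08 (rlog, SE; adjusted p = 3.31e-06) and 0.47 ± 0.09 (adjusted p = 0.000765). Sema4d, which T cells and tumour cells both express, ran from 9.27 to 9.91 (median 9.72) in WT untreated tumours and from 9.78 to 10.43 (median 10.01) under VE822, so the ranges overlapped. It rose by 0.36 ± 0.12 (adjusted p = 0.0228) under the WT label and differed by 0.32 ± 0.13 (adjusted p = 0.0826) under the SETD2 KD label. The first call ended without WT untreated replicate 3 (adjusted p = 0.0582), WT VE822 replicate 4 (0.0709) or WT VE822 replicate 6 (0.0538). Without the 5 libraries it ended too (0.32, adjusted p = 0.0710), and the SETD2 KD difference then passed (0.43, adjusted p = 0.00923).

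T cell markers rose in 8 of 9 cases under the WT label and in 9 of 9 under the SETD2 KD label. Their mean rlog per library was 4.90 to 5.60 in WT untreated and 5.26 to 6.64 in WT VE822 tumours. Under the SETD2 KD label it was 4.96 to 5.30 untreated and 5.77 to 6.65 under VE822. The part of T cells in the Sema4d result was not tested. Sema4b ran from 11.25 to 11.46 (median 11.43) in WT untreated tumours and from 10.90 to 11.32 (median 11.17) under VE822, overlapping at the edge. It fell by 0.26 ± 0.07 (rlog, SE; adjusted p = 0.00372) under the WT label and differed by -0.19 ± 0.07 (adjusted p = 0.0613) under the SETD2 KD label. Sema4a and Sema4c passed under neither.

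Plxna2, a receptor for class 3 semaphorins with neuropilins and for Sema6a and Sema6b without them, fell most of all members under the WT label. It ran from 10.97 to 11.33 (median 11.18) in WT untreated tumours and from 10.11 to 10.56 (median 10.38) under VE822. In SETD2 KD tumours it ran from 10.82 to 11.23 (median 11.06) untreated, and was 10.63, 10.66, 10.88, 10.99 and 10.87 under VE822. The WT groups were far apart, whereas under the SETD2 KD label 3 treated tumours lay above the lowest untreated one. The differences were -0.79 ± 0.08 (rlog, SE; adjusted p = 7.91e-08) and -0.25 ± 0.08 (adjusted p = 0.0297). The WT call held in each of 21 alternative fits, from -0.83 to -0.70. The SETD2 KD call ended in 6 of 19, among them without SETD2 KD untreated replicate 2 (adjusted p = 0.0642) or 5 (0.0739) and without SETD2 KD VE822 replicate 1 (0.0871) or 2 (0.0904).

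Nrp2, the co-receptor of Sema3f and of VEGF-C, fell under both labels. It ran from 13.32 to 13.46 (median 13.40) in WT untreated tumours and from 12.71 to 12.94 (median 12.89) under VE822. In SETD2 KD tumours it ran from 13.28 to 13.55 (median 13.46) untreated, and was 12.93, 13.03, 13.06, 13.63 and 13.14 under VE822. Only SETD2 KD VE822 replicate 4, at 13.63, overlapped with untreated tumours. The differences were -0.55 ± 0.08 (rlog, SE; adjusted p = 8.48e-06) and -0.29 ± 0.08 (adjusted p = 0.0123). The second call ended after quantile normalisation (-0.25, adjusted p = 0.0570) and in a fit of only the groups compared (-0.29, adjusted p = 0.0714). Nrp1 differed by -0.26 ± 0.15 and -0.26 ± 0.17 and passed under neither label (adjusted p = 0.186 and 0.278). Without the 5 libraries, the SETD2 KD difference of Nrp1 was -0.42 (adjusted p = 0.0420).

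The other plexins that passed changed little. Plxna1, the main receptor partner of neuropilin-1, ran from 12.69 to 12.76 (median 12.72) in WT untreated tumours and from 12.73 to 13.08 (median 12.97) under VE822. In SETD2 KD tumours it ran from 12.67 to 12.92 (median 12.81) untreated and was 12.92, 13.05, 13.20, 12.91 and 13.23 under VE822. The untreated WT tumours were tightly grouped and 1 treated tumour fell among them, while the ranges overlapped narrowly under the SETD2 KD label. The differences were 0.22 ± 0.06 (rlog, SE; adjusted p = 0.00728) and 0.26 ± 0.07 (adjusted p = 0.00705). Plxna1 also lies on chromosome 6, and with chromosome medians removed the WT difference was 0.09 and did not pass (adjusted p = 0.242). Plxnb2 ran from 14.45 to 14.74 (median 14.68) in WT untreated tumours and from 14.28 to 14.62 (median 14.49) under VE822, with broad overlap. In SETD2 KD tumours it ran from 14.61 to 14.75 (median 14.72) untreated and was 14.63, 14.49, 14.65, 14.20 and 14.52 under VE822. It fell by 0.17 ± 0.07 (adjusted p = 0.0445) and 0.21 ± 0.07 (adjusted p = 0.0336). These calls ended in 14 of 21 and 12 of 19 alternative fits, with 10 and 8 of them leaving out 1 library. With chromosome medians removed the Plxnb2 differences were -0.10 under both labels (adjusted p = 0.195 and 0.251).

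**Figure D3:**
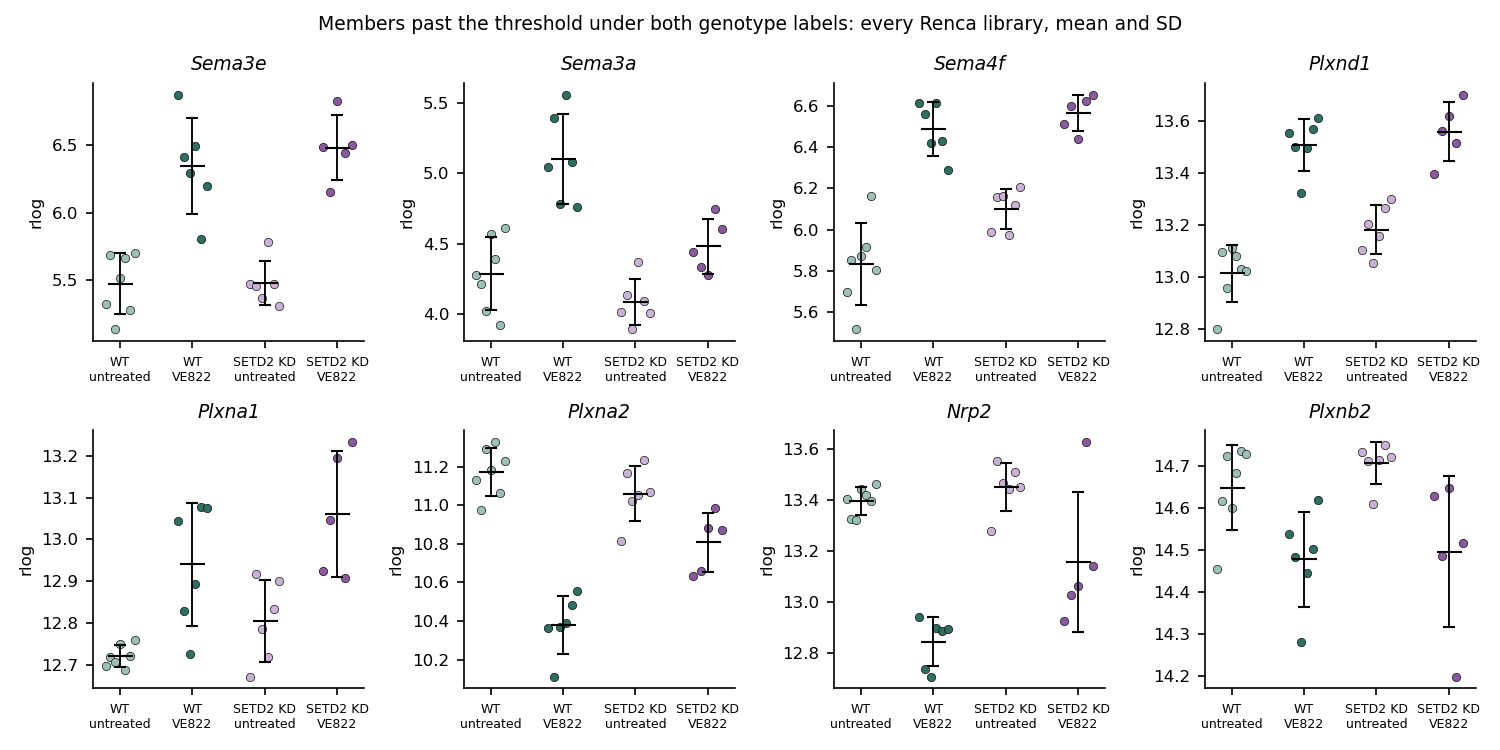
rlog of the 8 members that passed under both genotype labels, 1 point per Renca library, with the mean and SD of each group. Treated and untreated points are separate under both labels for Sema3e, Sema4f and Plxnd1, and under the WT label for Sema3a, Plxna2 and Nrp2. The share of all genes with separate groups was not computed. The vertical axes differ and do not start at 0.

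Promoter sequences are shown for 5 of those 8 members, Sema3e, Plxnd1 and Sema4f, which rose, and Plxna2 and Nrp2, which fell, so that genes that moved in opposite directions can be read side by side. Each is the RefSeq stretch (GRCm38.p6) from 250 bases before to 50 after the start, 300 bases, 5′ to 3′ on the gene's strand. Capitals mark matches on either strand to the GC box GGGCGG, the CCAAT box, the TATA box written as TATAAA, or the E-box written as CACGTG. Sema3e is at chr5:14025026-14025325 on the plus strand, Plxnd1 at chr6:115994956-115995255 on the minus strand, Sema4f at chr6:82939720-82940019 on the minus strand, Plxna2 at chr1:194619579-194619878 on the plus strand and Nrp2 at chr1:62703067-62703366 on the plus strand.
Sema3e: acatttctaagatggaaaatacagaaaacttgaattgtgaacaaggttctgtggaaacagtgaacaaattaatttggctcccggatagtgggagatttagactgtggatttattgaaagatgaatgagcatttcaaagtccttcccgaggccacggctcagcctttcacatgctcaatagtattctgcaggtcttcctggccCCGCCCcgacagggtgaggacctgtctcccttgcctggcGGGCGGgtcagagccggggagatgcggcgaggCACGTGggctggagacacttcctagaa
Plxnd1: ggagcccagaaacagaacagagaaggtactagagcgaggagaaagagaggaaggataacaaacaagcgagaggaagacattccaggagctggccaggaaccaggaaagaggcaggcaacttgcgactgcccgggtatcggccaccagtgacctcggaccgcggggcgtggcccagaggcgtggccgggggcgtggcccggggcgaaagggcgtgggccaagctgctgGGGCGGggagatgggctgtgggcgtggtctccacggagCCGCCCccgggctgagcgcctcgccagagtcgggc
Sema4f: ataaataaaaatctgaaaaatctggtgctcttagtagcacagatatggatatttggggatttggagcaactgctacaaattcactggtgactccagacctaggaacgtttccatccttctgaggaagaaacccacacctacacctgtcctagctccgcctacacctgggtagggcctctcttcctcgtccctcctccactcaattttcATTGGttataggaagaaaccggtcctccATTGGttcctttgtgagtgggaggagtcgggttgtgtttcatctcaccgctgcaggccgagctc
Plxna2: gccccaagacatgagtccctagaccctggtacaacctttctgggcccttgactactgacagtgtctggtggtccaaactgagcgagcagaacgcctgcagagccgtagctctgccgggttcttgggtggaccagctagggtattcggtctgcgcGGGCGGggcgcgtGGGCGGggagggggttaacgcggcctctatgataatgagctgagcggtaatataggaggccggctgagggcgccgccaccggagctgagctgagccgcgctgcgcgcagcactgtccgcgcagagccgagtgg
Nrp2: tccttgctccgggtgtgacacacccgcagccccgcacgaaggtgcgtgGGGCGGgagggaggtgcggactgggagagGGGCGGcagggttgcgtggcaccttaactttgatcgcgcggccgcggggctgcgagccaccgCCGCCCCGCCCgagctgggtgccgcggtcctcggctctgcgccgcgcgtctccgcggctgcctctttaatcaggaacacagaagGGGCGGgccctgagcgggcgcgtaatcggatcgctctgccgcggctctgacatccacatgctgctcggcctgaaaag

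Sema3e held 2 GC boxes and 1 E-box with 11 CpG, Plxnd1 2 GC boxes with 23 CpG, and Sema4f 2 CCAAT matches with 7 CpG. Plxna2 held 2 GC boxes with 25 CpG and Nrp2 5 with 37 CpG, a neighbouring pair of which overlaps. Over all 32851 promoters of this length the median was 7 CpG. Of the 31 members 26 had an entry, with 37 promoters in all. GGGCGG stood in 27 of these 37 and in 35.7% of all promoters, CCAAT in 7 and in 37.4%, TATAAA in 0 and in 13.6%, and CACGTG in 3 and in 7.15%. These matches describe letters in a window, not sites in use.

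Among the 17 members that passed under neither label, Sema6d, Sema5a and Plxnb1 were picked after their values were seen. None of them was flagged by the rule used further below for a library far from the others. In SETD2 KD VE822 replicate 4, Sema6d was at 9.46, while the other 4 tumours of the group were at 7.42 to 8.02. Sema5a was at 6.94 there, against 4.81 to 5.51, and Plxnb1 at 5.79, against 4.25 to 4.77. This library had the highest pericyte marker mean of the 24 (9.45) and the highest endothelial one (9.13). It also had the highest macrophage mean (12.50) and the lowest renal carcinoma (11.24), B cell (6.99) and neutrophil (6.01) means. WT VE822 replicate 4 came next for Sema5a (6.07), with a pericyte marker mean of 8.99. Over the groups the pericyte marker mean ran from 7.97 to 8.75 in WT untreated, 7.82 to 8.99 in WT VE822, up to 8.30 in SETD2 KD untreated and 7.53 to 9.45 in SETD2 KD VE822 tumours, and 0 of 5 pericyte markers passed under either label. Fibroblast markers rose in 5 of 9 cases under the WT label and in 0 of 9 under the SETD2 KD label, with group ranges of 8.46 to 10.29, 9.48 to 12.03, 8.60 to 9.92 and 9.02 to 10.46 in the same order. Skeletal muscle markers rose in 3 of 10 cases under the WT label, with library means of up to 9.38, and 5 of 7 dendritic cell markers rose under each label. Epithelial markers of skin (Krt5, Krt14, Krt1 and Krt10) had an rlog of at most 2.40 in every library. Trp63, the only marker of that list that was tested, ran from 2.81 to 3.78. It rose by 0.36 ± 0.10 (rlog, SE, limma adjusted p = 0.00982) under the WT label and did not pass under the SETD2 KD label. The part of these cell types in the member results was not tested. Without the 5 libraries that stand apart, 10 members passed under the WT label, where 28.6% of all genes did, and 12 under the SETD2 KD label, where 29.9% did.

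**Figure D4:**
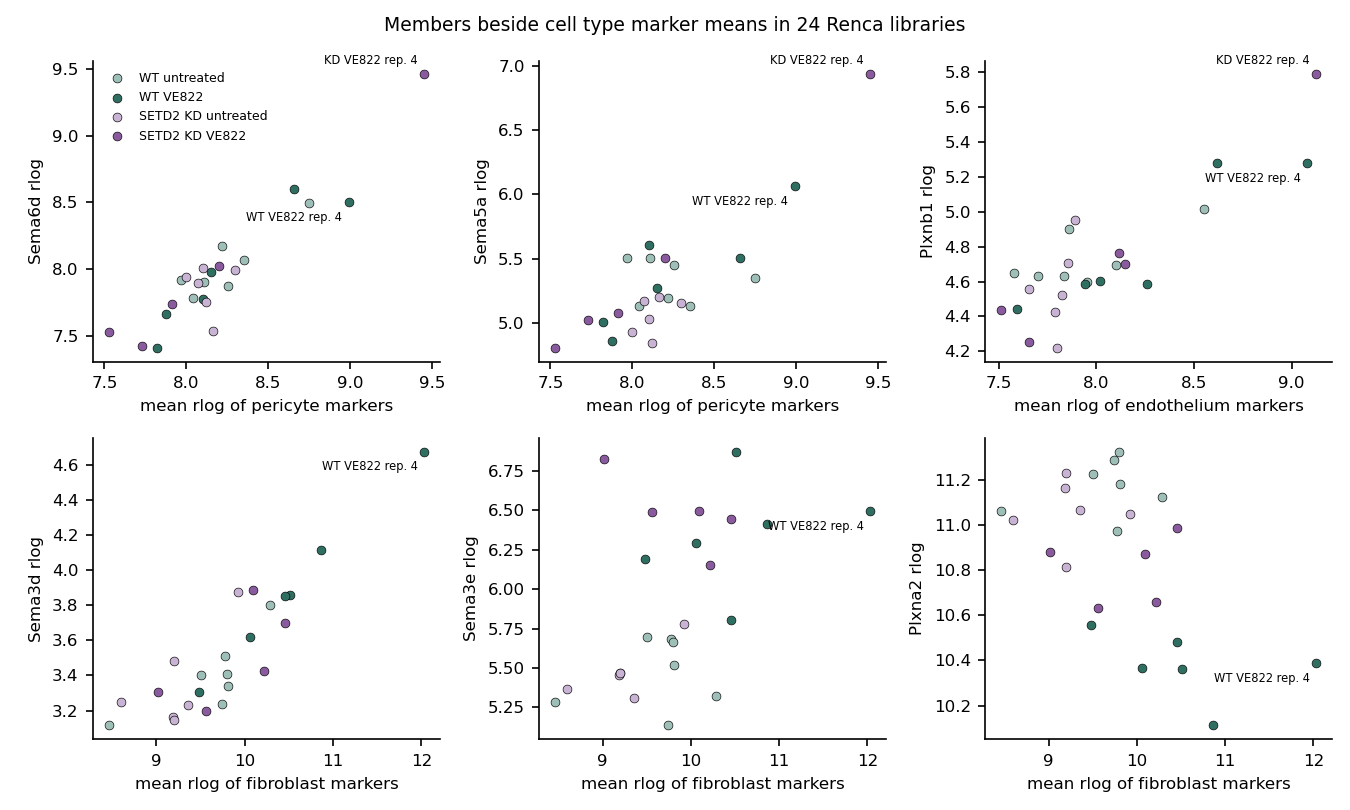
rlog of 6 members against the mean rlog of pericyte, endothelial or fibroblast markers, 1 point per Renca library, coloured by group. Sema6d, Sema5a and Plxnb1 are highest in SETD2 KD VE822 replicate 4 (9.46, 6.94 and 5.79), Sema3d is highest in WT VE822 replicate 4 (4.67), Sema3e is higher in every treated tumour than in any untreated one, and Plxna2 is lower in every treated WT tumour than in any untreated one, with some overlap under the SETD2 KD label.

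Partners of the families were read from the same 4 lists in the tumours. Of 37 tested transducers and co-receptors 9 rose and 9 fell under the WT label (48.6%, against 34.7% of all genes), and 5 rose and 4 fell under the SETD2 KD label (24.3%, against 22.2%). Their median differences were 0.04 and 0.06 (rlog), against 0.01 for all genes under each label. Met, the HGF receptor that associates with plexin-B1, rose by 1.14 ± 0.13 (rlog, SE; adjusted p = 1.17e-06) and 0.99 ± 0.15 (adjusted p = 4.13e-05). Under the WT label Ptk7, a plexin-A co-receptor, rose by 0.71 ± 0.25 (adjusted p = 0.0312) and Farp1, a Rac exchange factor downstream of plexin-A4, by 0.54 ± 0.17 (adjusted p = 0.0156). Under the SETD2 KD label Cd72, the Sema4d receptor on B cells and macrophages, rose by 1.00 ± 0.17 (adjusted p = 0.000215), and Mst1r, the relative of Met, fell by 0.70 ± 0.13 (adjusted p = 0.000618). Of 8 VEGF ligands and receptors 1 rose and 1 fell under the WT label, and 1 fell under the SETD2 KD label. Vegfd fell by 0.88 ± 0.12 (adjusted p = 7.03e-06) and 0.95 ± 0.13 (adjusted p = 1.88e-05), and Pgf rose by 0.55 ± 0.21 (adjusted p = 0.0475) under the WT label.

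Of 6 proteases 2 rose and 1 fell under the WT label (50%, against 34.7% of all genes). Under the SETD2 KD label 0 passed, against 22.2% of all genes. Pcsk5 rose by 0.96 ± 0.31 (adjusted p = 0.0183), Mmp14, which sheds Sema4d, by 0.71 ± 0.22 (adjusted p = 0.0161), and Adam10 fell by 0.24 ± 0.05 (adjusted p = 0.00135). Of 10 tested netrin, slit, robo and UNC5 genes 2 rose and 2 fell under each label, or 40%. Of all genes 34.7% passed under the WT label and 22.2% under the SETD2 KD label. With lists this short the shares are not read as a trait of them. Ntn1, encoding netrin-1, fell by 0.89 ± 0.11 (adjusted p = 3.02e-06) and 0.59 ± 0.12 (adjusted p = 0.00138), and the slit receptor gene Robo2 rose by 0.69 ± 0.10 (adjusted p = 9.04e-06) and 0.96 ± 0.10 (adjusted p = 8.32e-07). Ntn5 rose by 0.81 ± 0.13 (adjusted p = 4.82e-05) and 0.67 ± 0.14 (adjusted p = 0.00149).

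Between the genotype labels, limma called 0 of 30 members without treatment (0.0% of all 15916 genes) and 0 under VE822 (0.0126% of all genes, 0.00628% in each direction), and the interaction called 0 (0.0% of all genes). At an unadjusted p under 0.05 there were 2, 6 and 4 of the 30 members, against 3.22%, 12.8% and 9.12% of all genes. Untreated, Plxnd1 differed by 0.17 ± 0.06 and Sema4f by 0.27 ± 0.08 (rlog, SE, SETD2 KD minus WT), with adjusted p of 1.00. Plxna2 came nearest to a difference. Under VE822 it was 10.81 ± 0.15 (SD, n = 5) with the SETD2 KD label and 10.38 ± 0.15 (SD, n = 6) with the WT label, a difference of 0.43 ± 0.08 (SE; limma adjusted p = 0.0535). Its interaction, the fall under the SETD2 KD label set against that under the WT label, was 0.54 (95% interval 0.31 to 0.77; adjusted p = 0.424). Sema3a under VE822 differed by -0.62 ± 0.14 (adjusted p = 0.0970), with an interaction of -0.42 (95% interval -0.82 to -0.02; adjusted p = 0.539). Without WT VE822 replicate 3 both genes passed under VE822, and without SETD2 KD VE822 replicate 1 Plxna2 did. Sema3e differed by 0.14 (95% interval -0.17 to 0.44) and Plxnd1 by 0.05 (95% interval -0.08 to 0.18) under VE822.

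The human and mouse data differ in drug, dose, duration and setting, so their values are given side by side and no difference between them was tested. In 786-O, SEMA3F, SEMA4B and PLXNB2 had differences of -1.12, -1.23 and -0.92 (log2). Sema3f, Sema4b and Plxnb2 had differences of -0.23, -0.26 and -0.17 (rlog) under the WT label, and of -0.10, -0.19 and -0.21 under the SETD2 KD label, where only the last passed. SEMA4D, SEMA4F and PLXND1 fell in 786-O, with differences of -1.43, -1.29 and -1.29. Sema4d, Sema4f and Plxnd1 rose under the WT label, with differences of 0.36, 0.66 and 0.49, and had 0.32, 0.47 and 0.38 under the SETD2 KD label, where Sema4d did not pass. PLXNA2 differed by 0.21 in 786-O, where it did not pass, and Plxna2 by -0.79 and -0.25 in the tumours. SEMA5B fell by 3.25 in 786-O, while Sema5b differed by -0.02 (95% interval -0.23 to 0.18) and -0.10 (95% interval -0.32 to 0.13) in the tumours.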

How the data were processed

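RNA was sequenced in 28 libraries, 4 human and 24 mouse, grouped by the sample labels alone. The authors deposited the human table as variance-stabilised log2 values, per the file headers, and the mouse table as rlog, also log2 values, per the deposited table's name and the range of its values. FastQC, TopHat, HTSeq, DESeq2, hg38 and GRCm38 are named in the submitters' processing notes without versions. The 786-O counts were recovered by inverting the transform, whose floor is 2.47; 100% of values below 1000 counts were whole within 0.1. The mouse depth is unknown.

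Differences were tested with limma 3.58.1 (R 4.3.3) on the deposited log2 values, with a mean-variance trend and Benjamini-Hochberg adjustment over all 29353 human genes that were not constant and all 15916 mouse genes with a mean rlog of at least 3, at a threshold of 0.05. The mouse model held 4 group means over 24 libraries. The model was tested on simulated data. Mouse symbols and coordinates come from GENCODE vM21 (GRCm38). Beyond the 2 human experiments, the labels do not say that cultures or animals were separate, so p-values measure the spread between these libraries only. The 2 human experiments number the libraries; same-numbered libraries deviated together (correlation 0.158 over 29353 genes, 0.511 over the 12731 with a mean log2 value of at least 5), and the experiment was used as a block in an alternative fit.

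Members and gene lists were chosen with earlier results of these data known. SEMA5B, Plxna2, up to 10 human members past the threshold and up to 12 mouse members past it under either label, taken by size of change, were to be given in full; SEMA6A, Plxnb2 and all others described were added after their values were seen. Up to 3 genes per further list were named by size of change. Alternatives were voom on recovered counts, quantile normalisation, other filters, no trend, library weights, removal of chromosome medians, a fit of only the groups compared, and leaving out each library. Leaving out 5 libraries together was chosen after seeing the data: 4 with a mean rlog of muscle markers above 7 (WT untreated replicate 4 and WT VE822 replicates 1, 2 and 4) and SETD2 KD VE822 replicate 4.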

Additional observations from a re-analysis of the deposited data

Results flagged for a closer look

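In 7 of 120 combinations of member and mouse group, 1 library lay far from the others; by chance about 1 in 20 would. Sema4c was at 9.39 in SETD2 KD VE822 replicate 4, with the next library at 8.89. Sema6b was lowest there, at 10.24, with the next at 10.78. This library also had the highest pericyte and the lowest renal carcinoma marker mean. Plxna3 was at 6.14 in SETD2 KD VE822 replicate 1, with the next at 6.50. In SETD2 KD untreated replicate 3, Plxnb2 was lowest at 14.61 (next 14.71) and Sema4c lowest at 8.66 (next 8.77). Sema3e was highest at 5.78 in SETD2 KD untreated replicate 4 (next 5.47), still under every treated tumour of that label. Sema6c was lowest at 3.27 in WT untreated replicate 1 (next 3.44).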

How the results depend on the processing

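In 786-O the number of members past the threshold was 11, was 0 without a mean-variance trend and ran from 0 to 5 when 1 library was left out, where the lone library of a group is assumed to vary like the other group; it was 12 with voom or quantile normalisation. With the experiment as a block it was 15, which added NRP1, PLXNB1, SEMA3C and SEMA6D and ended no call, while the share of all genes called went from 13.2% to 19%; the same 15 passed among genes with a mean log2 value of at least 5, where 48.9% of all genes did. Under the WT label 12 members passed, and 9 to 13 when 1 library was left out. Under the SETD2 KD label 9 passed, where 22.2% of all genes did. After quantile normalisation 5 passed, beside 21.9% of all genes, and with library weights 14, beside 32.6%. When 1 library was left out 5 to 11 passed, with 5 without SETD2 KD untreated replicate 5 or SETD2 KD VE822 replicate 2. For these fits and those of the WT label without 1 library, the share of all genes is not given. Between genotype labels under VE822 the count was 0, and 0 to 2 when 1 library was left out; without treatment and for the interaction it was 0 in each alternative run. For 32 single-gene results, no difference reversed in 220 other settings or 299 fits without 1 library; 32 and 81 of these lost the call. Sema3e, Plxnd1 and Sema4f under both labels, and Plxna2, Nrp2, Sema3a, Sema3f and Sema4b under the WT label, kept theirs in every alternative in which they were tested. Treated 786-O counts limit precision for members under 100 counts in every library, of which there were 10.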
